A study of Oryctolagus cuniculus with 4 samples.

Results

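The genes that drive and restrain the cell cycle were described in intact rabbit semitendinosus tendon, a hamstring tendon that is harvested to rebuild torn ligaments. Members were chosen by symbol alone: CDK followed by a digit, CDKN, CCN followed by A, B, D or E, MCM or CDC followed by a digit, E2F, AURK, BUB or CENP, together with PCNA, TOP2A, RB1, RBL1 and RBL2. The rule found 108 of 20294 genes, 13225 of which carried a symbol. All 108 were annotated as protein coding. No measured value entered the choice.

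RNA came from 1 tendon of each of 4 New Zealand White rabbits, all female and 193 days old. The labels call the tendons intact and harvested as autografts, the series title says allografts, and no treatment is named, so the data hold 1 group of 4 animals and no comparison between conditions. Surface muscle had been scraped off and each whole tendon was ground, so every value averages over all cells of the tissue. In such samples fewer cells of a type and less RNA per cell cannot be told apart. The libraries held 19759696 to 30646052 estimated counts. Levels are in TPM, read abundances divided by annotated transcript length and brought to 1 total. TPM of different genes may be compared only as far as the annotated lengths are right. Those of the members ran from 237 to 11392 bases. Differences between tendons are on CPM, counts brought to a common depth by TMM scaling without any length, and a count of 3 was worth 0.0979 to 0.152 CPM.

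Tenocyte markers, with 7 of 8 listed genes analysed, summed to 65590, 49402, 32293 and 28908 TPM in tendons 1 to 4. Tendon 4 stood apart from the others in fast muscle markers, whose 7 genes summed to 17.4, 80.5, 23.3 and 2387 TPM, and tendon 1 in stress and immediate early genes, whose 9 genes summed to 1179.8, 375, 483 and 389.97 TPM. Counts that rest on tendon 4 are therefore given with and without it. Where 4 values follow a gene's name, they are those of tendons 1, 2, 3 and 4 in that order.

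A dividing cell passes through growth, DNA replication and mitosis under the control of cyclin-dependent kinases (CDKs), which act only when bound to a cyclin. The pocket proteins RB1, RBL1 and RBL2 hold E2F transcription factors in check until CDKs phosphorylate them, and the CIP/KIP and INK4 inhibitors block the kinases. Released E2F drives genes for replication, such as the MCM helicase that unwinds DNA and its clamp PCNA, and mitosis then needs cyclin B with CDK1, the Aurora and BUB kinases and the centromere proteins. Adult tendon is known for very slow cell turnover, and resting cells are known to hold high amounts of several inhibitors and little mitotic RNA.

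The data showed a set of genes at very unequal levels. CDKN1A, CDKN1B, CDKN2C, CDKN2D, RB1 and RBL2 lay above the members' median level while CDKN2A, CDKN2B and RBL1 lay below it. The replication clamp and 1 helicase subunit were well detected, and many genes used in mitosis, though not BUB3, were scarce. The symbol rule also took in genes best known for other tasks, among them the member with the highest TPM, CDC42, a small GTPase of the cytoskeleton. A mean of at least 1 TPM was reached by 94 of 108 members (87%), against 63% of all genes and 75.4% of genes with a symbol. A mean of at least 10 TPM was reached by 56 members (51.9%), against 43% of all genes and 53% of named genes. At the higher level the members' share was close to that of named genes. The members' median level was 10.8 TPM, against 5.65 over all genes and 11.8 over named genes, and together they held 0.284% ± 0.0106 (SD, n = 4) of each tendon's TPM.

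**Figure D1:**
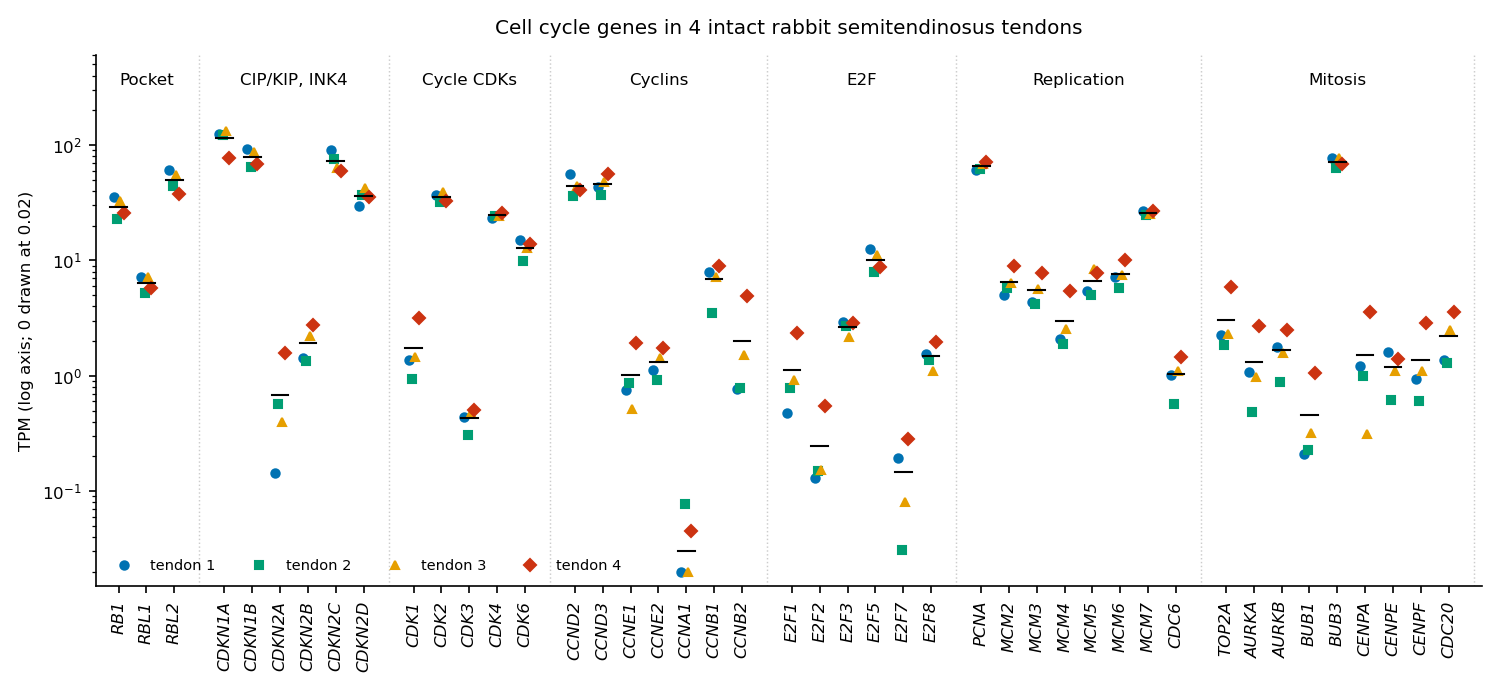
TPM on a log axis of members grouped by role, with 1 symbol per tendon (circle, square, triangle and diamond for tendons 1 to 4) and a bar at the mean of 4 tendons. Inhibitors such as CDKN1A (mean 114 TPM) lie well above mitotic genes such as CDK1 (mean 1.74 TPM), and the diamonds of tendon 4 lie highest for most replication and mitosis genes.

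The pocket proteins were all present, in an order that held in each tendon. RBL2, the pocket protein that is typical of resting cells and forms the DREAM repressor complex, was measured at 60.8, 44.4, 54.7 and 37.6 TPM, with a mean of 49.4 ± 10.4 (SD, n = 4). RB1, the retinoblastoma protein, was at 35.7, 23.1, 32.8 and 25.8 TPM. RBL1, the member known to be induced in cycling cells, was at 7.14, 5.27, 7.2 and 5.81 TPM. No tendon of one gene overlapped with the range of the next. RBL2 was 6.46 to 8.50 times RBL1 within the same tendon, and RB1 was 4.37 to 4.996 times RBL1. Like all 16 ratios tested here, these lay on one side of 1 in 4 of 4 tendons. Their two-sided exact sign-flip permutation p was 0.13, before and after Benjamini-Hochberg adjustment over the 16, the smallest that 4 tendons allow, so no ratio in this design can reach 0.05.

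CDKN1A, the CIP/KIP inhibitor induced by p53, had the highest TPM of the inhibitors of the cycle kinases, at 125, 121, 133 and 77.5 TPM. Its mean was 114 ± 24.9 (SD, n = 4). Tendon 4 was low and the others lay close together. CDKN1B, the inhibitor linked to resting cells and loss of mitogens, was measured at 91.9, 64.4, 87.2 and 68.98 TPM. The ranges of these genes overlapped, and CDKN1A was 1.12 to 1.88 times CDKN1B within tendons. That order depends on the annotated lengths of 501 bases for CDKN1A and 1981 bases for CDKN1B. Without length correction it reversed, with a mean log2 ratio of -1.45 in CPM against 0.53 in TPM. The mean CPM was 31.3 for CDKN1A and 84.1 for CDKN1B, and 50.6 for the INK4 gene CDKN2C.

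Among the INK4 inhibitors, which bind CDK4 and CDK6, the abundant forms were CDKN2C and CDKN2D. CDKN2C was at 90.5, 75.3, 63.8 and 59.6 TPM and CDKN2D at 29.9, 36.98, 42.04 and 35.2 TPM, a ratio of 1.52 to 3.03 within tendons, with a geometric mean of 1.99 in TPM and 5.87 in CPM. CDKN2B, an INK4 gene induced by TGF-beta in many cells, was at 1.44, 1.35, 2.2 and 2.75 TPM. CDKN2A, which encodes both an INK4 inhibitor and the p53 regulator ARF and is widely used as a marker of senescent cells, was at 0.143, 0.574, 0.398 and 1.59 TPM. CDKN2A rested on 1, 9, 6 and 25 counts, so the 95% Poisson interval in tendon 4, 0.507 to 1.16 CPM, lay above that of tendon 1, 0.00132 to 0.291 CPM, and overlapped with that of tendon 2, 0.143 to 0.594 CPM. These intervals cover counting error only. CDKN2A and CDKN2B were the INK4 genes with their highest value in tendon 4, and they lie 29883 bases apart on chromosome 1 of OryCun2.0, CDKN2B at 31778928 to 31786122 and CDKN2A at 31816005 to 31824463. The summed CIP/KIP level was 1.48 to 2.03 times the summed INK4 level within tendons.

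The other genes named after CDK inhibitors were moderately abundant. CDKN2AIPNL, a relative of the ARF-binding protein CDKN2AIP, was at 42.3, 54.3, 63.8 and 52.7 TPM. CDKN2AIP itself was at 39.9, 27.1, 32.4 and 28.7 TPM. CDKN3, a phosphatase that removes the activating phosphate from CDK2 and is usually counted with proliferation genes, was at 7.49, 7.27, 11.1 and 12.3 TPM, higher in tendons 3 and 4 than in tendons 1 and 2.

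Of the cycle kinases, CDK2 and CDK4 were abundant, while CDK1 and CDK3 were scarce. CDK6, with a mean of 12.9 TPM, lay near the median of named genes, 11.8 TPM. CDK2, which works with cyclins E and A in S phase, was at 36.8, 32.1, 39.01 and 32.9 TPM. CDK4, the kinase of cyclin D, was at 23.4, 24.5, 24.5 and 25.8 TPM, a mean of 24.6 ± 0.981 (SD, n = 4), with little spread between tendons. CDK6, its close relative, was at 15.2, 9.84, 12.9 and 13.7 TPM. Their ranges did not overlap in TPM, and CDK4 was 1.55 to 2.49 times CDK6 (geometric mean 1.93, and 6.37 in CPM) but only 0.628 to 0.787 times CDK2. The order of CDK4 and CDK2 turned with the unit, from a mean log2 ratio of -0.51 in TPM to 2.00 in CPM, their annotated lengths being 5937 and 1038 bases. CDK1, the mitotic kinase, was at 1.36, 0.94, 1.45 and 3.18 TPM, and tendon 4 was more than 2 times as high as any other. CDK2 was 10.3 to 33.8 times CDK1 within tendons, lowest in tendon 4, and the geometric mean of 22.3 times became 5.23 times in CPM. CDK3 was at 0.442, 0.304, 0.473 and 0.503 TPM and rested on 17 to 33 counts.

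The cyclins also split by level. CCND2 and CCND3, the D cyclins that carry growth signals to CDK4 and CDK6, were at 56.2, 36.1, 44.2 and 40.5 TPM, and at 43.7, 37.02, 47.7 and 55.8 TPM. CCND2 was highest in tendon 1 and CCND3 in tendon 4. The E cyclins, which start S phase, were far lower, with CCNE1 at 0.751, 0.859, 0.511 and 1.92 TPM and CCNE2 at 1.13, 0.926, 1.43 and 1.75 TPM. Cyclin D exceeded cyclin E by 26.2 to 52.8 times within tendons, with the lowest ratio in tendon 4 and a geometric mean of 40.4 times in TPM and 72.2 times in CPM. CCNA1, the A cyclin known mainly from germ cells, had 0, 2, 0 and 1.14 counts, at or below the 3 counts taken as the floor in each tendon. CCND1, CCNA2, CDKN1C and E2F4 were not analysed here.

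The B cyclins, partners of CDK1, differed in pattern. CCNB1 was at 7.95, 3.5, 7.22 and 9.03 TPM, low in tendon 2 and similar in the others. CCNB2 was at 0.767, 0.784, 1.5 and 4.94 TPM, and its tendon 4 value in CPM, 4.07 with a 95% Poisson interval of 3.40 to 4.83, lay above the interval of tendon 3, 0.892 to 1.76. CCNB2 therefore separated tendon 4 while CCNB1 separated tendon 2. Of the genes named for binding a cyclin, CCNDBP1, which binds D cyclins, was at 39.3, 34.7, 34.2 and 36.8 TPM, and CCNB1IP1, a ligase best known from meiosis, was at 2.88, 1.19, 2.27 and 3.14 TPM.

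The E2F genes were low, as transcription factor RNAs often are. E2F5, a repressor that binds RBL2, was the most abundant at 12.7, 7.96, 11.1 and 8.79 TPM. E2F3, an activator, was at 2.9, 2.68, 2.18 and 2.88 TPM, lowest in tendon 3. The activator E2F1 was at 0.473, 0.784, 0.926 and 2.34 TPM, and tendon 4 held 50 counts against 6, 17 and 18 in the others. Its 95% Poisson interval there, 1.16 to 2.06 CPM, did not overlap with those of the other tendons, the highest of which ended at 1.01 CPM. E2F2 was at 0.129, 0.151, 0.152 and 0.552 TPM, again highest in tendon 4. The atypical repressors E2F8 and E2F7, which are themselves E2F targets in cycling cells, were at 1.54, 1.37, 1.1 and 1.97 TPM, and at 0.193, 0.0307, 0.0801 and 0.281 TPM.

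Replication genes were detected in every tendon. PCNA, the clamp that holds DNA polymerase on its template and also serves DNA repair, was at 60.96, 62.4, 68.97 and 71.9 TPM, with a mean of 66.03 ± 5.22 (SD, n = 4). TOP2A, the topoisomerase that untangles chromosomes and is made mostly from S phase to mitosis, was at 2.26, 1.85, 2.31 and 5.85 TPM. Tendon 4 was more than 2 times as high as the next tendon for TOP2A, and PCNA spread little. PCNA was 12.3 to 33.6 times TOP2A within tendons, lowest in tendon 4, with a geometric mean of 23.9 times in TPM and 4.51 times in CPM.

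The MCM2 to MCM7 proteins form the replicative helicase as a ring with 1 copy of each, yet their RNAs were unequal. MCM7 was at 26.7, 24.99, 25.2 and 26.9 TPM, far above the rest and nearly level across tendons. MCM6 was at 7.12, 5.74, 7.44 and 10.1 TPM and MCM5 at 5.39, 4.98, 8.38 and 7.71 TPM. MCM2 was at 5.05, 5.76, 6.38 and 8.93 TPM and MCM3 at 4.38, 4.22, 5.68 and 7.77 TPM. The ranges of MCM2, MCM3, MCM5 and MCM6 overlapped, so their order is not settled by 4 tendons. MCM4 was lowest in each tendon at 2.07, 1.88, 2.53 and 5.41 TPM. The ratio of MCM7 to MCM4 was 12.9, 13.3, 9.97 and 4.97, so the subunits were least unequal in tendon 4. MCM7 was 3.00 to 5.27 times MCM2. The 2 MCM7 transcripts of the annotation took 17.0% ± 1.86 and 83.0% ± 1.86 (SD, n = 4) of its TPM.

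**Figure D2:**
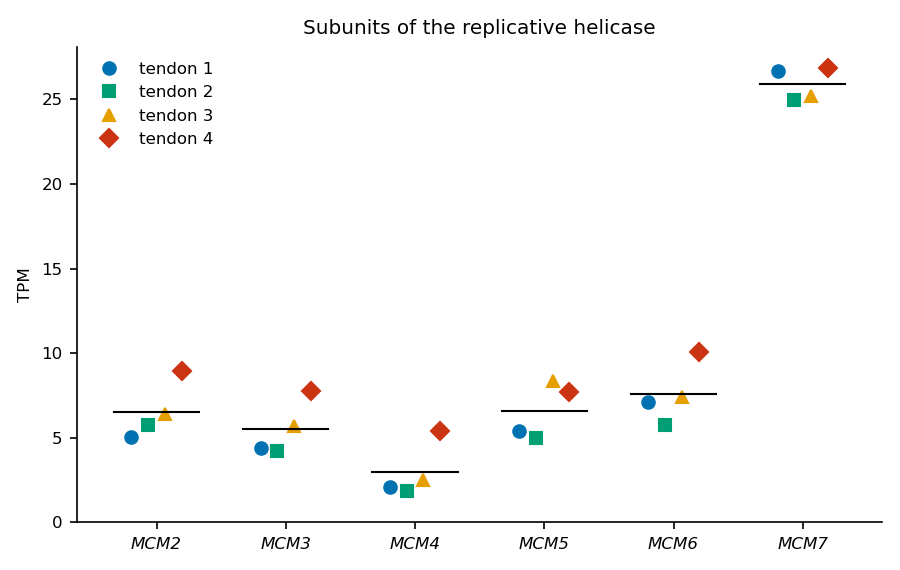
TPM of the 6 subunits of the replicative helicase on a linear axis from 0, with 1 symbol per tendon and a bar at the mean of 4 tendons. MCM7 lies between 24.99 and 26.9 TPM in all tendons, and the other subunits lie at or under 10.1 TPM, with tendon 4 highest for each subunit except MCM5.

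The members CDC6, CDC7 and MCM10, which help to load or start the helicase, were scarce. CDC6, which loads MCM rings on DNA, was at 1.02, 0.566, 1.1 and 1.46 TPM. CDC7, the kinase that fires loaded rings, was at 3.08, 1.94, 2.56 and 2.96 TPM. MCM10, a factor of replication start, was at 2.12, 1.11, 1.82 and 2.97 TPM. The remaining MCM names belong to other processes: MCM3AP, an mRNA export factor, was at 24.9, 19.8, 21.3 and 23.8 TPM, MCM9, a recombination helicase, at 7.74, 6.08, 7.27 and 6.73 TPM, and its partner MCM8 at 0.578, 0.362, 0.579 and 0.528 TPM.

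Genes of mitosis were mostly at a few TPM or less. AURKA, the centrosome Aurora kinase, was at 1.07, 0.482, 0.968 and 2.7 TPM. AURKB, the kinase of the chromosome passenger complex, was at 1.76, 0.885, 1.58 and 2.5 TPM, and AURKC, its germ cell relative, was at 2.16, 1.2, 1.63 and 1.96 TPM. AURKA and AURKB were highest in tendon 4 and lowest in tendon 2, whereas AURKC was highest in tendon 1. AURKAIP1, named for binding AURKA but a protein of the mitochondrial ribosome, was at 116, 137, 148 and 152 TPM, far above the kinases.

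The spindle checkpoint pair BUB1 and BUB3 stood at opposite ends of the range. BUB3, which also takes part in processes outside mitosis, was at 77.7, 63.05, 77.05 and 68.4 TPM. BUB1, the kinase at the kinetochore, was at 0.21, 0.225, 0.32 and 1.06 TPM. BUB1 rested on 6, 11, 14 and 51 counts, and its 95% Poisson interval in tendon 4, 1.19 to 2.10 CPM, lay above those of the others, the highest of which ended at 0.831 CPM. BUB3 was 63.8 to 353 times BUB1 within tendons, lowest in tendon 4, with a geometric mean of 194 times in TPM and 77.5 times in CPM.

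Regulators of mitotic entry and exit were also low, apart from those with other tasks. CDC25B, a phosphatase that activates CDKs before mitosis, was at 12.1, 12.03, 17.2 and 17.3 TPM. Its relatives CDC25A and CDC25C were under 1 TPM, with means of 0.358 and 0.226 TPM. CDC14B and CDC14A, phosphatases that counter CDKs, were at 12.6, 10.9, 14.2 and 14.9 TPM, and at 4.26, 3.0, 5.39 and 4.76 TPM. CDC20, which switches on the anaphase-promoting complex (APC/C) to end mitosis, was at 1.37, 1.28, 2.51 and 3.6 TPM, highest in tendon 4. The APC/C subunits themselves were abundant and steady. CDC16 was at 60.4, 48.4, 46.3 and 54.5 TPM, and CDC23 was at 52.8, 42.01, 47.8 and 42.4 TPM. CDC26 and CDC27 were at 34.6, 33.7, 29.9 and 37.8 TPM, and at 33.9, 24.7, 30.98 and 32.9 TPM. The APC/C is also active in resting cells. In CPM, 0 of its 4 measured subunits were highest in tendon 4, against 24.6% of all genes above 1 CPM. So few genes cannot set 0 apart from that share. CDC26 was highest in tendon 4 in TPM, and in CPM it was at 14.2 in tendon 2 and 14.1 in tendon 4.

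Centromere proteins of the kinetochore ranged widely in level. CENPE, a motor that moves chromosomes, was at 1.62, 0.611, 1.1 and 1.4 TPM. CENPF, a large protein made in late S phase and mitosis, was at 0.933, 0.605, 1.09 and 2.88 TPM. Their patterns differed, since CENPE was highest in tendon 1 and CENPF in tendon 4. CENPA, the histone that marks centromeres, was at 1.21, 0.989, 0.316 and 3.59 TPM from 5, 7, 2 and 25 counts. Its interval in tendon 4, 0.507 to 1.16 CPM, overlapped with that of tendon 1, 0.0849 to 0.610 CPM.

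Of the 12 inner kinetochore genes analysed, CENPA included, CENPU, CENPH, CENPC and CENPN were the most abundant, and CENPT and CENPP were under 1 TPM, with means of 0.257 and 0.272 TPM. CENPU was at 15.3, 10.9, 15.8 and 19.7 TPM, and CENPH at 14.9, 8.14, 13.7 and 12.5 TPM. CENPC, which links centromeric chromatin to the kinetochore, was at 14.1, 6.54, 11.98 and 7.65 TPM, lower in tendons 2 and 4 than in tendons 1 and 3. CENPN, which reads the CENPA nucleosome, was at 5.06, 3.25, 3.11 and 4.65 TPM. CENPV, a protein that has been linked to centromeres and microtubules, was at 18.6, 23.4, 20.03 and 23.4 TPM, and CENPJ, a protein of centriole growth, was at 0.703, 0.595, 0.807 and 0.678 TPM. CENPH lies 3680 bases from CCNB1 on chromosome 11 of OryCun2.0, CCNB1 at 85364513 to 85372097 and CENPH at 85375777 to 85393763. Both were lowest in tendon 2, and CCNB1 was highest in tendon 4 whereas CENPH was highest in tendon 1.

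CDKs that serve transcription rather than division were level with the G1 kinases. CDK8 and CDK19, kinases of the Mediator complex, were at 40.9, 26.1, 20.7 and 24.9 TPM, and at 26.4, 20.9, 24.3 and 20.2 TPM. CDK13, a kinase of elongating RNA polymerase II, was at 33.3, 20.8, 24.9 and 24.96 TPM. CDK7, which activates other CDKs and belongs to TFIIH, was at 18.6, 13.4, 16 and 16.5 TPM. The 5 measured transcription kinases, CDK12 included, were each highest in tendon 1, which was the highest tendon for 31 of 91 members above 1 CPM (34.1%) and for 30.8% of all such genes.

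CDKs with other tasks were led by CDK16, a kinase of the PCTAIRE group, at 40.9, 52.3, 43.9 and 52.02 TPM. CDK5, best known from neurons, was at 28.7, 26.04, 20.95 and 29.5 TPM. CDK17, like CDK16 a PCTAIRE kinase, was at 21.4, 15.98, 22.5 and 19.2 TPM, and CDK20 was at 7.67, 6.15, 7.12 and 6.69 TPM. The genes named for binding CDK5 were CDK5RAP3 at 52.8, 45, 47.5 and 52.7 TPM, the centrosome protein CDK5RAP2 at 18.8, 11.01, 11.2 and 13.3 TPM and CDK5RAP1 at 9.71, 10.7, 14.1 and 11.02 TPM. Within each of these genes the highest tendon was less than 2 times the lowest.

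The 4 members highest in TPM, CDC42, CDC37, CDC34 and AURKAIP1, lay above CDKN1A and are not cyclins, CDKs or their inhibitors. This order depends on the annotated lengths, 615 bases for CDC42. In CPM, CDC42 had a mean of 87.2, below CDC42BPA (209.7), CDC42BPB (206.7) and CCND2 (160.4), among others. CDC42 was at 250.4, 254, 254 and 281 TPM, followed by CDC37, the co-chaperone that brings kinases, CDK4 among them, to HSP90, at 186, 210.4, 196 and 197 TPM. CDC34, the ubiquitin-conjugating enzyme that serves the destruction of CDK inhibitors before S phase, was at 120.1, 155, 142 and 152 TPM, with an annotated length of 717 bases that equals its genomic span, so the model holds no intron. CDC37L1 was at 52.8, 57.1, 53.2 and 68.96 TPM. CDC73, part of the PAF complex of transcription, was at 49.1, 33.99, 41.1 and 36.4 TPM. Partners of CDC42 were also well expressed, with CDC42SE1 at 110.2, 109, 106 and 112 TPM, and the kinases CDC42BPB at 89.5, 74.8, 86.1 and 86.4 TPM and CDC42BPA at 95.5, 65.02, 75.4 and 52.5 TPM. CDC42BPA had its lowest value in tendon 4, and the 8 genes of CDC42 signalling summed to between 659 and 693 TPM.

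Sums over 3 lists of members put these observations on 1 scale. The arrest list of 8 genes, CDKN1A, CDKN1B, CDKN2A to CDKN2D, RB1 and RBL2, summed to 435, 367, 416 and 309 TPM. The replication list of 12 genes, MCM2 to MCM7, MCM10, PCNA, CDC6, CCNE1, CCNE2 and E2F1, summed to 117, 114, 130.4 and 149 TPM. The mitosis list of 12 genes, CDK1, CCNB1, CCNB2, TOP2A, AURKA, AURKB, BUB1, CENPA, CENPE, CENPF, CDC20 and CDC25C, summed to 20.7, 12.2, 20.6 and 41.2 TPM. BUB3 was outside this list at 77.7, 63.05, 77.05 and 68.4 TPM, more than the whole sum in each tendon. In CPM, BUB3 was lowest in tendon 4. CDC25B, CDC14A, CDC14B and the APC/C subunits were also left out, so the sum and its ratios cover only part of the genes used in mitosis. Arrest genes were highest in tendon 1 and lowest in tendon 4, and mitosis genes highest in tendon 4 and lowest in tendon 2. The ratio of arrest to mitosis was 21.0, 30.1, 20.2 and 7.50. Arrest exceeded replication by 3.71, 3.22, 3.19 and 2.07 times, and replication exceeded mitosis by 5.66, 9.36, 6.32 and 3.62 times. In CPM the geometric mean of arrest to mitosis was 8.06 in place of 17.6, and that of replication to mitosis 3.15 in place of 5.90. PCNA and MCM7 alone made up most of the replication sum, and CDKN1A, CDKN1B and CDKN2C most of the arrest sum.

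The largest differences between tendons were mostly in replication and mitosis genes. A mean of 1 CPM or more was reached by 91 members, and in 15 of them (16.5%) the highest tendon was 2 or more times the lowest, against 18.2% of the 12674 genes above the same level. The 15 were AURKB, CCNB1, CCNB1IP1, CCNB2, CCNE1, CDC20, CDC6, CDK1, CENPE, CENPF, CENPM, CENPS, MCM10, MCM4 and TOP2A. Of these, CCNB2, CDC6, CENPM and CCNB1IP1 reached a mean of 1 CPM only through tendon 4, where they were highest. When the mean of tendons 1 to 3 had to reach 1 CPM, 11 of 87 members (12.6%) passed 2 times, against 17.5% of genes. Without tendon 4 altogether it was 1 of 87 (1.15%), CENPE, against 12% of genes. Among the 55 members averaging 10 CPM or more it was 0, against 10.1% of such genes. At least 4 times was reached by CENPF and CCNB2, 2.2% of members against 3.98% of genes. The median SD of log2(CPM + 1) was 0.215 for members and 0.199 for all genes, a difference that was not tested.

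The member with the largest spread on that scale was CENPF, followed by CCNB2, TOP2A, MCM4, CDK1, CCNE1, CCNB1, CENPE, CENPC and CDC20. In CPM, CENPF was at 4.81, 3.55, 5.83 and 14.97, its highest value 2.54 times the next. CCNB2 was at 0.628, 0.73, 1.27 and 4.07 CPM, its highest value 3.04 times the next. The first 6 genes of this order were highest in tendon 4 by 1.92 to 3.04 times over the next tendon. For CCNB1, CENPE, CENPC and CDC20 the highest value was only 1.14 to 1.38 times the next.

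Tendon 4 held the highest value of 30 of the 91 members (33%), against 24.6% of all genes above 1 CPM, and the lowest of 23 (25.3%), against 25.7%. Leaving out the 4 members that passed only through tendon 4, it was highest for 26 of 87 (29.9%), against 23.7% of genes filtered in the same way. Among members with any counts, tendon 4 was highest for 44 of 108 (40.7%), against 28.8% of the 17344 genes with counts, and lowest for 23 (21.3%), against 21.6%. In that wider set 27 members (25%) reached 2 times, against 26.6% of genes. By list the split was uneven. The mitosis genes were highest in tendon 4 in 11 of 12 cases, the other being CENPE, and in all 12 the highest tendon was 2 or more times the lowest. Of the 12, AURKA, BUB1, CENPA and CDC25C averaged under 1 CPM, and CCNB2 passed 1 CPM only through tendon 4. Without tendon 4, the mitosis genes past 2 times were CENPA, CENPE and CDC25C, 3 of 12, against 18.5% of genes with counts and 7 of all 108 members (6.48%). In tendons 1 to 3, CENPA rested on 5, 7 and 2 counts and CDC25C on 3, 1 and 6. Within each of these genes the 95% Poisson intervals of those tendons overlapped. Replication genes were highest in tendon 4 in 10 of 12 cases, the others being MCM5 and MCM7, and 5 reached 2 times, namely MCM4, MCM10, CDC6, CCNE1 and E2F1. Without tendon 4, 0 of 12 did. Without tendon 2, MCM4, CCNE1 and E2F1 remained, 3 of 12, against 19.9% of genes with counts and 19 of all 108 members (17.6%). These counts per list were chosen after the values were seen.

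Of the 8 arrest genes, 5 were lowest in tendon 4, CDKN1A, CDKN1B, CDKN2C, RB1 and RBL2, against 21.6% of all genes with counts. CDKN2A and CDKN2B were highest there, against 28.8% of all genes with counts. Only CDKN2A reached 2 times, as did 26.6% of all genes with counts. When CPM were scaled by library totals, or TPM were used, CDKN1A, CDKN2C and RBL2 were lowest in tendon 4, 3 of 8. No share over all genes is given here for those 3 of 8. Relative to each gene's own mean over tendons, on log2(CPM + 0.1), the median mitosis gene stood at -0.17, -0.69, -0.06 and 0.99. The median replication gene stood at -0.25, -0.23, -0.01 and 0.45, and the median arrest gene at 0.14, 0.08, 0.17 and -0.21. Over all genes averaging 1 CPM or more the same medians were 0.00175, 0.00406, 0.00350 and 0.00143.

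**Figure D3:**
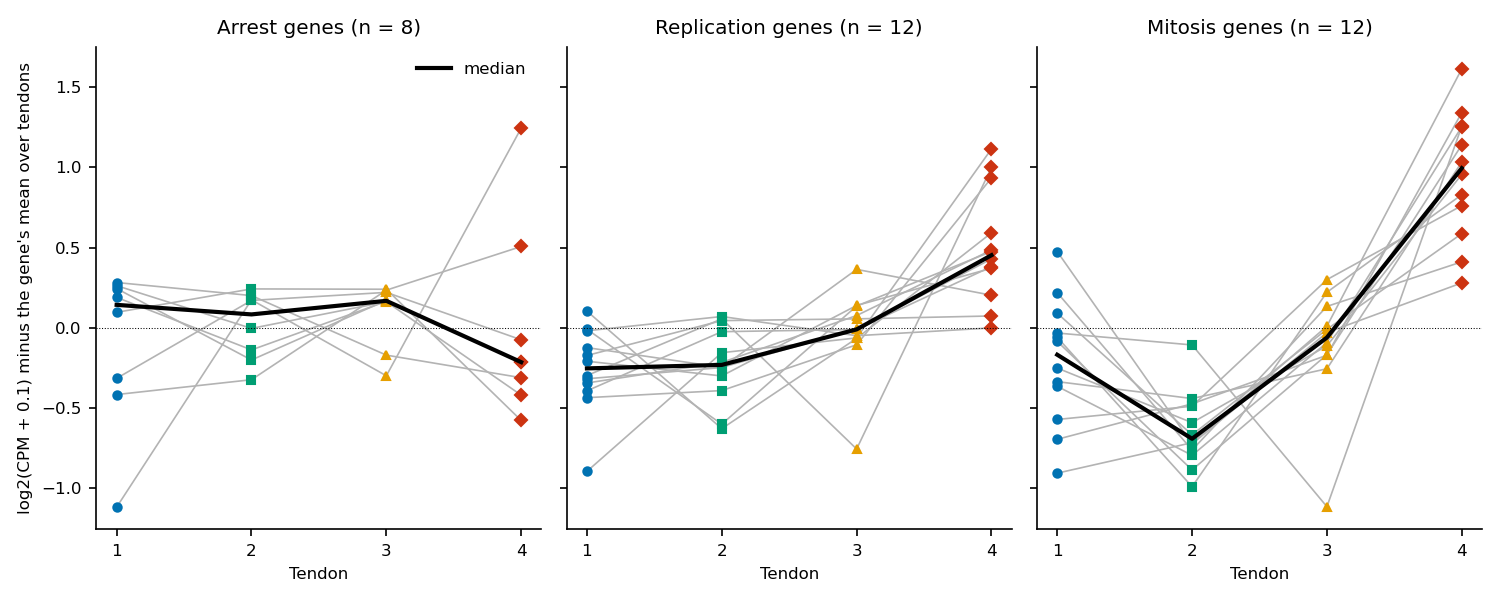
Each gene's log2(CPM + 0.1) minus its mean over the 4 tendons, for the arrest, replication and mitosis lists, with grey lines joining the values of 1 gene and a black line at the median of the list. In tendon 4 the mitosis genes lie between 0.28 and 1.61, the replication genes between -0.0012 and 1.11, and the arrest genes between -0.58 and 1.24.

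Markers of some other cell types were also highest in tendon 4, and others were not. Macrophage markers, 11 of 12 listed genes, summed to 99.6, 81.9, 191 and 266 TPM. In CPM, 10 of the 11 were highest in tendon 4, against 24.6% of all genes above 1 CPM. Lymphocyte markers, 7 of 11, summed to 7.55, 4.64, 9.12 and 16.6 TPM. PTPRC gave the largest part of this sum at 2.52, 1.84, 4.77 and 8.56 TPM. Only 2 of the 7, PTPRC and CD79B, had a mean of 1 CPM or more. CD2, a T cell marker of that list, had 0 counts in tendons 1 and 3. Satellite cell and early muscle markers, 6 of 8, summed to 302, 1176, 688 and 1341 TPM, and adipocyte markers, 5 of 8, to 216, 307, 452 and 727 TPM. DES made up most of the satellite cell sum, at 296, 1160, 679 and 1301 TPM. In CPM, DES was highest in tendon 2, and the other 5 genes, PAX3, PAX7, MYF5, MYOD1 and MYOG, in tendon 4. Endothelial markers, 9 of 10, summed to 247, 305, 413 and 389 TPM, and pericyte markers, 7 of 8, to 323, 385, 494 and 483 TPM, both highest in tendon 3. Slow muscle markers, 6 of 8, were highest in tendon 2 at 4433, 16068, 8507 and 9988 TPM, and the 6 Schwann cell markers in tendon 1 at 326, 268, 294 and 237 TPM. Erythroid markers, 4 of 7, stayed between 1.97 and 4.24 TPM. The part of these cells in the levels of the mitosis and replication genes was not tested. The tenocyte sum was lowest in tendon 4, as the arrest sum was. In CPM, however, 4 of the 7 tenocyte genes were lowest there (MKX, FMOD, THBS4 and DCN), against 25.7% of all genes above 1 CPM. TNMD, COL1A1 and COL1A2 were lowest in tendon 3. TNMD, the tendon gene tenomodulin, had its highest TPM in tendon 4, at 158, 169, 31.7 and 187 TPM. The part of tenocytes in the arrest sum was not tested.

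**Figure D4:**
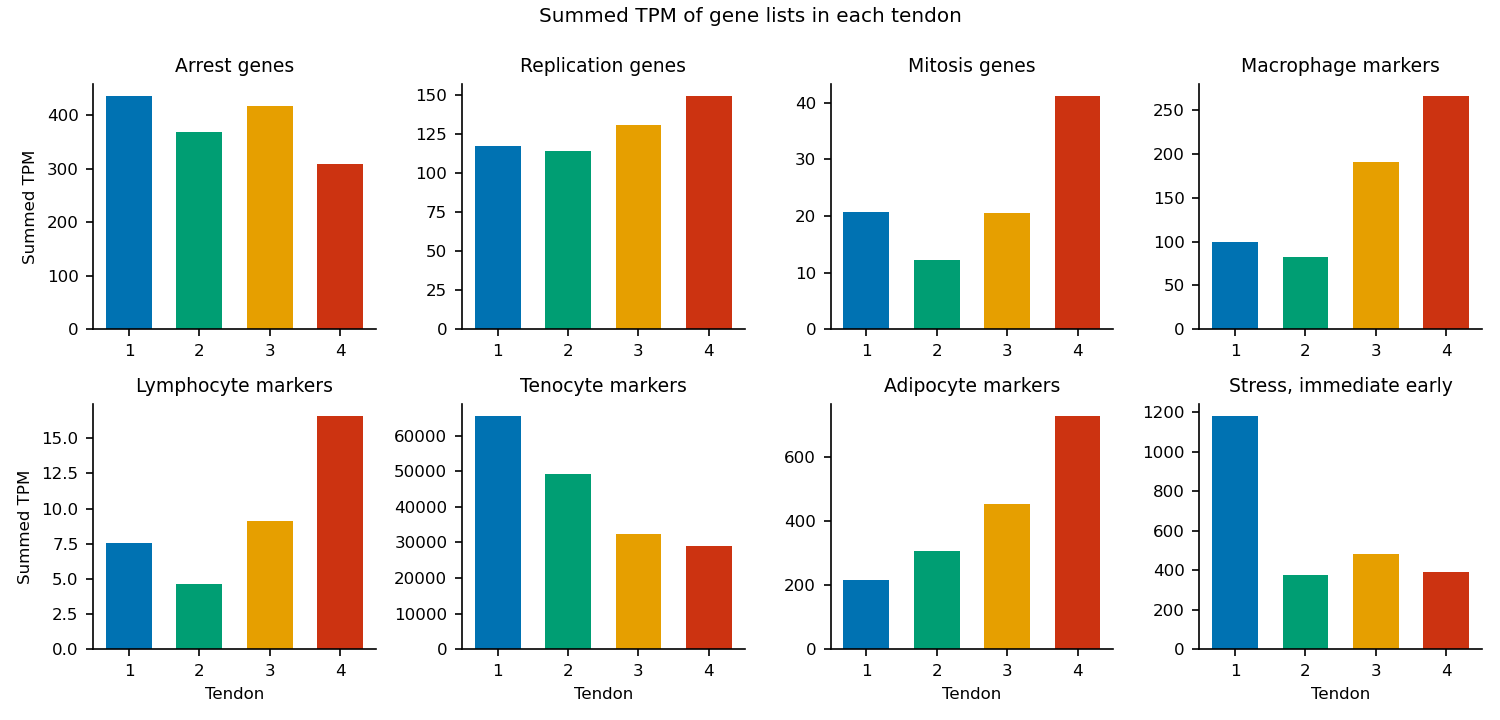
Summed TPM of 8 gene lists, 1 bar per tendon, each panel with its own linear axis from 0. Mitosis genes, macrophage markers, lymphocyte markers and adipocyte markers have their highest bar in tendon 4 (41.2, 266, 16.6 and 727 TPM), and arrest genes and tenocyte markers their lowest (309 and 28908 TPM).

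Other genes of the same processes, listed from known function, gave further detail. Of 41 other genes of G2 and mitosis, 31 were analysed and 19 had a mean of at least 1 TPM, against 75.4% of all genes with a symbol. The highest were TUBB, a tubulin of all cells, at 224 ± 36.99 TPM, and HMGB2, a chromatin protein, at 118 ± 21.1 TPM. TPX2, an activator of AURKA, was at 6.74 ± 1.88 TPM and MAD2L1, of the spindle checkpoint, at 6.55 ± 1.22 TPM (SD, n = 4 each). Of the 31, 29 were highest in tendon 4, against 28.8% of all genes with counts, the others being HMGB2 and MAD2L1. The list medians relative to each gene's own mean were -0.20, -0.47, -0.09 and 0.86. UBE2C, the enzyme that works with the APC/C, was at 3.13, 1.4, 2.41 and 8.11 TPM, low in tendon 2 and high in tendon 4 like the mitosis list. Its value is given as an example chosen after the values were seen.

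Of 37 other S phase genes, 31 were analysed and 24 had a mean of at least 1 TPM, against 75.4% of all genes with a symbol. The highest were RPA1 and RPA3, which coat single-stranded DNA, at 55.3 ± 4.25 and 40.9 ± 4.58 TPM, RFC1, of the clamp loader, at 52.3 ± 7.45 TPM, and ORC4, of the origin complex, at 39.8 ± 7.88 TPM (SD, n = 4 each). Tendon 4 was highest for 15 of the 31 and lowest for 4, namely RFC1, ORC2, ORC3 and ORC5. Over all genes with counts it was highest for 28.8% and lowest for 21.6%. The list medians, -0.10, -0.11, 0.07 and 0.13, spread less than those of the mitosis list.

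The 19 analysed genes of 25 listed for p53 and growth arrest had no common direction, with 3 highest in tendon 4 (GADD45A, PLK2 and CCNG2) and 7 lowest there. Over all genes with counts these shares were 28.8% and 21.6%. The most abundant were TXNIP, at 293, 309, 458 and 254 TPM, BTG1, an antiproliferative gene, at 190.04, 146, 130.4 and 131 TPM, KLF4, at 112, 72.6, 166 and 62.8 TPM, and FOXO1, a factor of resting cells, at 84.1, 46.5, 51.3 and 36.98 TPM. Of these, BTG1 and FOXO1 were highest in tendon 1 and TXNIP and KLF4 in tendon 3. GADD45A, a stress gene of cycle arrest, was at 40.1, 29.5, 40.9 and 75.7 TPM, highest in tendon 4 where CDKN1A was lowest. Of the DREAM complex and the E2F partners of the DP family, 6 of 8 listed genes were analysed. Their median ratio of highest to lowest tendon in CPM was 1.31, against 1.40 over all genes above 1 CPM. LIN37 (1.45) and LIN52 (1.47) lay above 1.40. DYRK1A, the kinase that assembles DREAM, was at 50.2, 50.4, 51.04 and 50.9 TPM, and TFDP2, a DP partner, at 25.5, 26.4, 22.2 and 30.9 TPM. LIN37 and LIN52, of the DREAM core, were at 20.6 ± 2.85 and 11.8 ± 1.82 TPM (SD, n = 4 each). TFDP2 was the gene of this list with its highest value in tendon 4, and LIN9, LIN52 and LIN54 were lowest there.

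Of the 108 members, 6 had more than 1 annotated transcript. CDK12 gave 80.7% ± 3.73 (SD, n = 4) of its TPM from its longer transcript, and RBL1 gave 91.8% ± 3.27 from 1 of its 2. CDK8 and CDC14B were split almost evenly, with 50.6% ± 1.79 and 48.5% ± 3.33 from their shorter transcripts. CDKN2AIP gave 70.1% ± 4.63 from its longer transcript. How strand was used in counting is not given in the sources used here.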

How the data were processed

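Members and gene lists were chosen by symbol or known function, with earlier results of these data known. Polyadenylated RNA of each tendon was made into TruSeq libraries, per the labels' protocols. The authors deposited estimated counts per transcript, per the file headers, beside a gene symbol, coordinates and the annotated length in bases, a value of another unit. Kallisto 0.42.4, bcl2fastq, FastQC and OryCun2.0 stand in the submitters' processing notes without their roles. Filters and strand use are not given in the sources used here.

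TPM were computed from the deposited counts and lengths and summed per gene. For spread between tendons, TMM factors came from edgeR 4.0.16 (R 4.3.3), on counts rounded to whole numbers. They were computed over the 12740 genes that reached 1 CPM in 2 or more tendons and applied to the unrounded counts. Before a ratio of tendons, 0.1 CPM was added. Totals were 19759696, 30646052, 27304439 and 30038827 estimated counts. Exact 95% Poisson intervals on counts cover counting error only. Ratios within tendons, with 0.01 TPM added, were tested two-sided by exact permutation of their signs, with Benjamini-Hochberg adjustment over 16 ratios. The spread measures were tested on simulated data.

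Values in every tendon are given for the main roles, for the 4 most abundant members of every other role, for the 10 members with the largest SD of log2(CPM + 1) and for members with 3 or fewer counts in every tendon. From other lists the 4 most abundant genes and those behind a count of 5 or fewer are named. Alternatives were other units, thresholds, pseudocounts, filters, DESeq2 1.42.0 size factors, library totals and leaving out each tendon. Python 3.11.15 with numpy 2.4.6, pandas 2.3.3, scipy 1.17.1 and matplotlib 3.10.9 was used. Sequences of promoters and proteins were not used here.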

Additional observations from a re-analysis of the deposited data

Results flagged for a closer look

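In 7 of 154 values tested (the TPM of 108 members and the sums over roles and lists), 1 tendon lay farther from the others than Dixon's 95% limit of 0.83 for 4 samples, the measure being the gap to the nearest tendon divided by the whole range. For independent normal values chance alone gives about 7.7 of 154, so the number of such values is no more than that. The sums hold members that were also tested singly, so the values are not independent. Tendon 4 was the high one in 6 of the 7. Among single members these were E2F2, with a gap of 0.947 of the range, TOP2A with 0.884, CDC42 with 0.872 and BUB1 with 0.871. CDC42EP3, an effector of CDC42, was instead high in tendon 2, with a gap of 0.843. Among sums, the E cyclins CCNE1 and CCNE2 gave 0.918 and the activator E2Fs E2F1, E2F2 and E2F3 gave 0.858. The sums were 1.88, 1.78, 1.94 and 3.67 TPM for the E cyclins and 3.51, 3.61, 3.25 and 5.78 TPM for the activator E2Fs.

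On log2(CPM + 1), which changes the unit as well as the scale, 8 of 108 members lay past the limit. The number that chance gives was not worked out for this scale. E2F2 (0.874), TOP2A (0.879) and CDC42EP3 (0.856) were again high in 1 tendon, while BUB1 and CDC42 were no longer past it. AURKAIP1 (0.933), CDK5 (0.888), PCNA (0.882), CDC42EP2 (0.849) and E2F3 (0.833) had a low tendon instead.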

How the results depend on the processing

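No paired analysis was possible because the data hold a single group of 4 tendons. The count of members at 1 TPM (94) lay between 78 and 98 over all alternatives, and that at 10 TPM (56) between 44 and 65. The count of members whose highest tendon was 2 or more times the lowest (15) was 0 with a mean of at least 10 CPM, 27 with no filter and 9 with 1 CPM added before the ratio, and 1 to 15 on leaving out each tendon, 1 being without tendon 4. With the filter on tendons 1 to 3, chosen after seeing the data, it was 11, and members highest in tendon 4 were 26 in place of 30. Of 112 alternatives to the 16 ratios, 2 reversed a direction, both on using CPM: CDK4 to CDK2 at 2.00 and CDKN1A to CDKN1B at -1.45 (mean log2). Using CPM moved 11 of the 16 ratios by over 1.5 times. CPM carry transcript length, and the mitosis sum was 45.5 in CPM against 23.7 in TPM.

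Counts per list were chosen after seeing the data. Mitosis genes past 2 times (12) ranged from 3, without tendon 4, to 12 on leaving out each tendon, and replication genes (5) from 0, without tendon 4, to 5, with 3 without tendon 2. With library totals, arrest genes past 2 times were 2 in place of 1. With library totals and with TPM, arrest genes lowest in tendon 4 were 3 in place of 5. The cause was not tested. For 5 planned ratios, CCND1 to CCND2, CCND3 and CCNE1, CDKN1C to CDKN1B and E2F4 to E2F1, 1 gene of the pair was not analysed here, and promoter motifs were not run. Depth limits the members under 1 CPM (17), whose tendon values rest on few counts.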

Other observations

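Of 9 listed checkpoint genes, 7 were analysed and all 7 had a mean of at least 1 TPM, against 75.4% of all genes with a symbol. MDM4, a partner of p53, was at 51.9, 24.8, 40.3 and 39.7 TPM, and WEE1, the kinase that holds CDK1 inactive, at 34.8, 15.05, 21.4 and 22.6 TPM. Both were highest in tendon 1 and lowest in tendon 2. The damage kinases ATM and ATR were at 9.71 ± 1.64 and 6.79 ± 0.97 TPM (SD, n = 4 each). CHEK1, the replication checkpoint kinase, was at 1.78, 1.33, 1.22 and 2.81 TPM, highest in tendon 4, as was PKMYT1, a relative of WEE1, at 5.92, 7.0, 6.1 and 8.0 TPM.

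Of 14 other cyclins, 11 were analysed and 10 had a mean of at least 1 TPM, the exception being CCNO, against 75.4% of all genes with a symbol. The highest were CCNL1 and CCNL2, cyclins of RNA splicing, at 100.2 ± 23.5 and 42.5 ± 5.5 TPM, CCNY at 72.1 ± 4.61 TPM and CCNG2, a cyclin of resting cells also counted above with the p53 genes, at 34.2 ± 2.37 TPM (SD, n = 4 each). Among 13 listed growth drivers 11 were analysed. WWTR1, a co-activator of the Hippo pathway, was at 293, 203, 207 and 183 TPM, and the receptors FGFR1 and PDGFRB were at 162 ± 5.23 and 159 ± 18.1 TPM, with JUN, also among the immediate early genes, at 107 ± 8.26 TPM (SD, n = 4 each). In CPM, 8 of the 11 were lowest in tendon 4, against 21.6% of all genes with counts. In these 8 the highest tendon was 1.16 (FGFR1) to 2.39 (FOS) times the lowest.

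Some members lie within 200000 bases of each other in OryCun2.0. CDK7 lies 44453 bases from CENPH, in the same stretch of chromosome 11 as CCNB1. CDC23 and CDC25C lie 66554 bases apart on chromosome 3, and CDC6 and TOP2A 67093 bases apart on chromosome 19. The levels of such a pair could be far apart, as CDC23 had a mean of 46.2 TPM and CDC25C of 0.226 TPM.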
